A study of Gallus gallus with 8 samples.

Results

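Retina of chicken embryos at embryonic day (E) 18 was compared with retina at E8, the latest and the earliest of the retinal stages in the series, to describe the net change across retinal development by gene function. The comparison takes 4 of the 8 libraries, 2 per stage, and the 14550 rows of the gene table with at least 1 read in them, of 14839 rows with a read in any library. All embryos came from Cobb/Hubbard F1 hybrid eggs and carried no treatment, and each library was made from whole retina from which the pigment epithelium had been peeled away, after enrichment of poly(A) RNA with a stranded kit. The study calls the libraries biological duplicates and lists a separate subject, chicken 1 or chicken 2, for the replicates of each stage. Embryo sex is not stated in the sources used here. The rows at the end of the table, which belong to chromosome Z, and the 16 rows just before them, read here as chromosome W, were kept apart, since their levels can differ with sex. This left 13813 rows with reads for the description by function.

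The vertebrate retina arises from a sheet of dividing precursor cells. These leave the cell cycle in an overlapping order to become ganglion, horizontal, amacrine, cone, bipolar and rod cells, and the last to differentiate include the Müller glia, which span the tissue and serve its neurons. Neurons then extend processes, form synapses in the plexiform layers and, in the photoreceptors, build a light-sensitive outer segment on a modified cilium. The chicken retina is rich in cones and has no blood vessels of its own.

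Values are normalized counts, the reads on a gene divided by a size factor of the library, and a pair of values always gives replicate 1 and replicate 2. Values of single genes are in reads only where the text calls them so. A level in RPM is a read count scaled to 1000000 reads on genes. Depth was 20288742 to 45670254 reads on genes in the 4 libraries. Differences were tested with limma on log2(normalized count + 1) over all 8 libraries, and a gene was called at a Benjamini-Hochberg adjusted p under 0.05. All fold changes are log2 values of E18 minus E8 unless another scale is named, and they understate the change of genes near 0. With 2 libraries against 2, an exact two-sided permutation test of a single gene cannot give a p below 0.333. Every call thus rests on a spread taken from all 8 libraries and shared in part across genes. The replicates of E16 retina and E18 cornea enter the spread of each gene, so they can also affect whether it is called. Where leaving out 1 of the 4 libraries or another setting ended the call of a gene named as changed, the adjusted p-values of limma without that library, or of the fit under that setting, stand at the end of the paragraph that first describes it. The libraries were checked against retinal and corneal genes. SIX6, a homeobox factor of retinal precursors, had 10303 and 12143 normalized counts at E8 and 4236 and 5189 at E18, whereas the corneal genes KRT12 and LUM did not exceed 16.7 in any of the 4 libraries. The corneal gene KERA went the other way, with a rise of 5.94, and is described with the cornea list below. The E8 replicates were further apart than the E18 replicates, with 7.34% and 2.93% of genes differing by more than 2-fold between replicates. In bulk tissue, fewer cells of a type and less RNA per cell cannot be told apart, which holds for every value here.

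Most genes differed between the stages. Of 12543 genes tested outside the Z and W rows, 8275 were called (66.0%), 4452 higher (35.5%) and 3823 lower (30.5%) at E18. Among genes with a mean of at least 5 RPM at either stage, 3438 were called higher and 3480 lower. The excess of rises among all calls thus depends on genes with few reads. Called genes with at most 3 reads in both libraries of a stage numbered 319 for E8 and 93 for E18. Without that filter, large differences were more often rises. A call with a difference of at least 2-fold was made for 3333 genes in the upward direction (26.6%) and 1929 in the downward (15.4%), and a 16-fold difference for 588 (4.69%) and 191 (1.52%). The median difference of all genes tested was 0.06, and both libraries of a stage lay above both of the other for 10492 genes (83.6%). Those shares are the background against which each list below is read. The called genes also held a large part of all reads. Genes called higher took 15.9% and 17.2% of all reads on genes in the E8 libraries and 46.3% and 45.9% in the E18 libraries, while genes called lower went from 58.1% and 56.7% to 28.1% and 28.7%. The direction of these shares follows from the calls, which were made on the same libraries, so only their size is informative.

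The largest rises were led by photoreceptor genes. GUCA1A, a calcium sensor that activates the guanylyl cyclase of photoreceptors, had no read in either E8 library and 3617 and 3714 normalized counts at E18, which is at least 1247-fold higher relative to a limit of 3 reads in the shallower E8 library. Close to that were PRPH2, the disc rim protein peripherin, with 3 reads in each E8 library and 10555 and 10177 at E18, a ratio of 4690.3 with a 95% counting interval of 2155 to 12782, and ARR3, the cone arrestin, with 3.52 and 12.7 at E8 and 22954 and 22832 at E18 and a fold change of 11.51 (standard error 0.46). PDC (phosducin), which binds the beta and gamma subunits of transducin, went from 4.69 and 4.9 at E8 to 9049.8 and 9039 at E18, TULP1, a protein of photoreceptor transport, from 2.34 and 0.98 at E8 to 3977 and 4059 at E18, and CLUL1, a secreted clusterin-like protein of cones, from 5.27 and 10.8 at E8 to 15070.1 and 14997 at E18. In each of these genes the E18 replicates lay close together and far above both E8 libraries. Genes of other kinds were also among the 12 largest rises. SEMA3E, a secreted axon guidance cue, had 0 and 1 read at E8 and 2894 and 2750.0 at E18. GYS2, known as the liver isoform of glycogen synthase, was at 0 in both E8 libraries and at 1554 and 1405 at E18, at least 503-fold higher on the same limit. TMEM244, a membrane protein with no established role, was likewise at 0 at E8 and at 2563 and 2533 at E18, at least 867-fold higher. LACTBL1, PRA1 and GUCA1C complete the 12 and are not sorted by kind here, though GUCA1C is a relative of GUCA1A. In that order they had 3917 and 3727 at E18, 7680.4 and 8369 at E18 and 2019.7 and 2116 at E18. Each had at most 3 reads in any E8 library.

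The largest falls were almost all genes of dividing cells. BUB1, a kinase of the spindle checkpoint, had 6429 and 5253 normalized counts at E8 and 13.8 and 5.3 at E18, a fold change of -9.23 (standard error 0.38). E2F1, a transcription factor that switches on S-phase genes, had 14447 and 17449 at E8 and 37.6 and 19.7 at E18, and SLBP, which binds the stem-loop of replication-dependent histone mRNAs, had 3885 and 2387 at E8 and 5.01 and 5.3 at E18. CDC45 of the replicative helicase had 5785 and 3133 at E8 and 8.77 and 7.57 at E18. PLK1, the polo-like kinase of mitotic entry, had 10115 and 7968 at E8 and 20 and 18.2 at E18. CENPE, a kinetochore motor, had 9593 and 6355 at E8 and 21.3 and 12.9 at E18. No value at E18 came near the lower E8 replicate in any of these genes. PBK, a mitotic kinase, fell by 8.50 and PIF1, a DNA helicase, fell by 8.43. RRM2, the small subunit of ribonucleotide reductase, fell by 8.34 and EXO1, a DNA exonuclease, fell by 8.25. Among these 12, PTF1A, which specifies horizontal and amacrine cells, is no gene of the cell cycle machinery. It had 603 and 673 at E8, and a lone read in the E18 libraries. BPIFB7, a member of a family of lipid-binding secreted proteins, had 366 and 433 at E8 and no read at E18, at least 106-fold lower relative to 3 reads in the shallower E18 library.

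**Figure D1:**
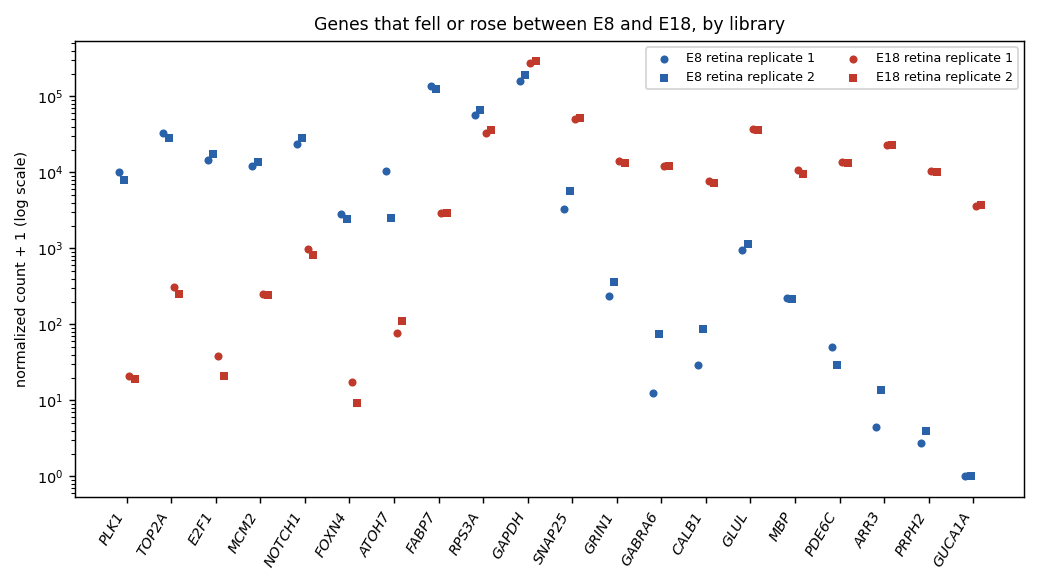
Normalized counts plus 1 on a log axis for 20 genes in the E8 (blue) and E18 (red) retina libraries, with a circle for replicate 1 and a square for replicate 2. The stages do not overlap in any of these genes, as in 83.6% of all genes tested. GUCA1A is at 0 in both E8 libraries, and RPS3A and GAPDH differ least.

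Other genes carried the largest changes in read numbers. GAPDH gained the most RPM, from 6532 RPM on average at E8 to 11056 at E18, followed by ENO1, SPARCL1, PDE6H, CA2, ENO2, LDHA and GNGT2. These include glycolytic enzymes (GAPDH, ENO1, ENO2 and LDHA), subunits of the cone phosphodiesterase (PDE6H) and cone transducin (GNGT2), and the glial genes SPARCL1 and CA2. EEF1A, the row of the elongation factor that brings aminoacyl-tRNA to the ribosome, lost the most, from 9825 to 3974 RPM. It was followed by FABP7, a fatty acid binding protein of radial glia and precursor cells, the row named gga-mir-3533, the brain creatine kinase CKB, the tubulin-binding protein STMN1, the nucleosome-binding protein HMGN2, the initiation factor EIF4G2 and the actin-binding protein TMSB4X. FABP7 alone went from 138655 and 126172 normalized counts at E8 to 2941 and 2942 at E18, a fold change of -5.49 (standard error 0.42). GAPDH (adjusted p 0.0675 to 0.228) and ENO1 (adjusted p 0.0573 to 0.125) lost the limma call whichever of the 4 libraries was left out.

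Functional lists showed opposite directions for dividing precursors and for differentiated cells. The 57 lists held 1893 genes with a row, of which 1709 were tested outside the Z and W rows and 1356 were called. List counts below cover those genes, a gene may stand in several lists, and the 85 tested members on the Z rows are given apart. A further 62 listed genes lie in a stretch of 1155 rows of which 1153 are at 0 in all 8 libraries and are taken as not measured, RFC2, DNMT1 and GNAT2 among them.

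**Figure D2:**
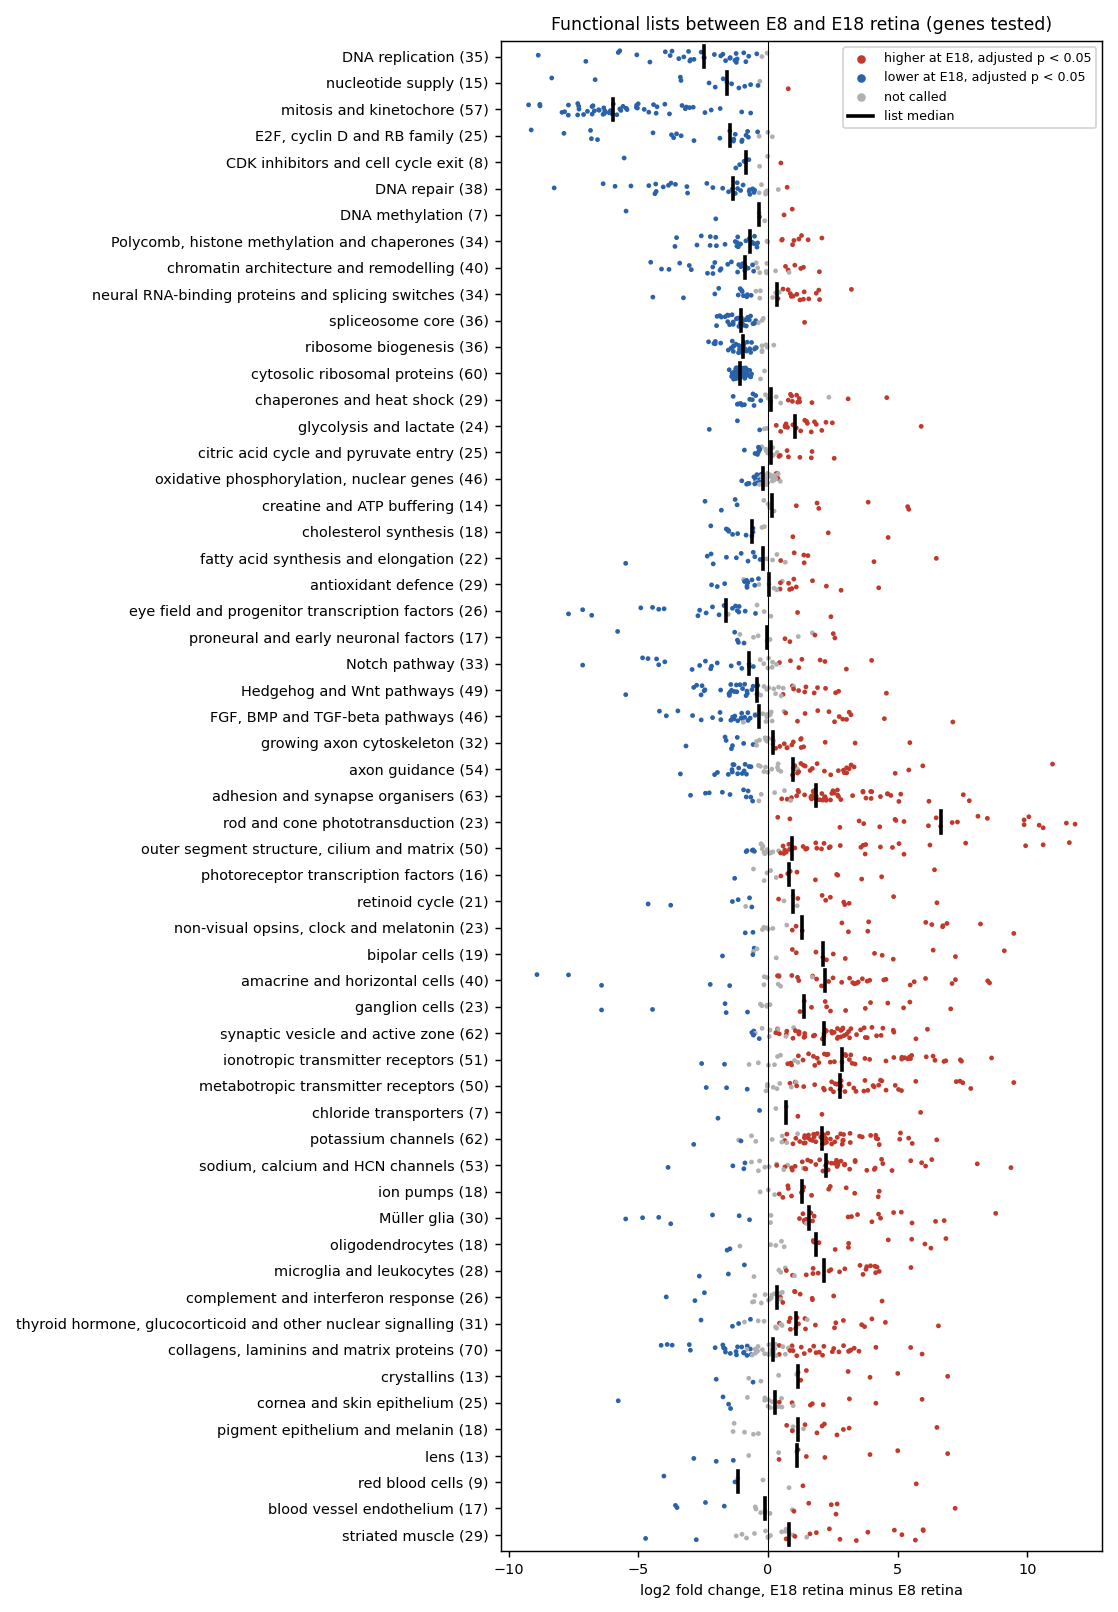
Log2 fold change, E18 minus E8 retina, of each gene tested (dot) in 57 functional lists, with the number tested in parentheses, red for genes called higher, blue for genes called lower, grey for genes not called and a black bar at the list median. Medians run from -5.97 for mitosis and kinetochore genes to 6.66 for rod and cone phototransduction.

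Genes of cell division fell nearly without exception. All 57 mitosis and kinetochore genes tested were called lower, against 30.5% of all genes, with a median of -5.97 (-5.83 with the E18 zeros set to the limit of 3 reads). TOP2A, which untangles replicated DNA, had 33416 and 28737 normalized counts at E8 and 309 and 254 at E18, a fold change of -6.78 (standard error 0.19) and a limma adjusted p of 3.47e-08. MKI67, the antigen used to mark dividing cells, had 22445 and 16435 at E8 and 253 and 214 at E18. CDK1, the kinase that drives entry into mitosis, had 14818 and 13118 at E8 and 90.2 and 80.3 at E18. CENPA, the histone variant that marks centromeres, went from 115 and 99 to no read at E18, at least 28.4-fold lower. The E18 replicates were nearly equal in the list's summed level, at 515 and 518 RPM, and the E8 replicates were not, at 14901 and 11703 RPM.

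DNA replication genes moved the same way, with 33 of 35 lower, none higher and a median of -2.46. Among the falls beside that of CDC45 were those of MCM2, a helicase subunit, at 12333 and 13728 normalized counts at E8 and 248 and 245 at E18 and ORC1, a subunit of the origin recognition complex, at 1708 and 957 at E8 and 18.8 and 26.5 at E18. PCNA, the sliding clamp of the polymerases, had 17673 and 12216 at E8 and 1486 and 1607 at E18. Of 15 nucleotide supply genes, 13 fell with a list median of -1.58, and the member that rose was TK2, the mitochondrial thymidine kinase, at 7269 and 7058 at E8 and 12295 and 12287 at E18. The cytosolic thymidine kinase TK1, which is tied to S phase, fell by 6.67. The E2F, cyclin D and RB list had 22 of 25 members lower and none higher (median -1.48). In it the activator E2F1 fell by 9.13 and the repressor E2F4 fell by 0.79, and CCND1, the cyclin that couples growth signals to the cycle, went from 4220.3 and 3666 at E8 to 373 and 395 at E18. DNA repair genes fell in 31 of 38 cases (median -1.35). BRCA1, of homologous recombination, had 5693 and 4528 at E8 and 65.2 and 56.8 at E18, PARP1, which senses strand breaks, fell by 0.73, and FANCM, a helicase of crosslink repair, rose by 0.74.

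The CDK inhibitor list did not mirror this. Of its 8 genes 5 fell and 1 rose (median -0.83). CDKN2C, an inhibitor of the cyclin D kinases, fell from 448 and 482 normalized counts at E8 to 7.52 and 10.6 at E18. CDKN1B, the inhibitor that holds postmitotic retinal cells out of the cycle in mouse, had 4189.8 and 4229 at E8 and 3964 and 4369 at E18 and was not called. BTG1, an antiproliferative gene, fell by 0.74, and TOB2 of the same family rose by 0.49. The order of the E8 replicates bears on these lists. Replicate 2 had lower summed levels than replicate 1 for DNA replication (5001 and 4023 RPM) and repair (3133 and 2584 RPM), and higher ones for axon guidance (3188 and 4132 RPM) and for amacrine and horizontal cell genes (761 and 1050.2 RPM). Among genes called lower at E18, 61.1% were lower in E8 replicate 2 than in replicate 1, compared with 41.6% of those called higher. The part of this difference in the calls was not tested beyond leaving out each library. TOB2 (adjusted p 0.068 to 0.122) lost the limma call without E18 replicate 1 or 2 or E8 replicate 2.

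Chromatin genes split by family and by member. Of 34 Polycomb, histone methylation and histone chaperone genes, 24 fell and 8 rose (median -0.71). EZH2, the methyltransferase of Polycomb complex PRC2, had 5239 and 5333 normalized counts at E8 and 856 and 918 at E18, and its relative EZH1 had 619 and 572 at E8 and 1459.7 and 1452 at E18. The 2 genes moved in opposite directions, and the stages did not overlap in either, as in 83.6% of all genes tested. Of the histone chaperones of S phase, NASP fell by 3.59 and CHAF1A fell by 2.74. The demethylase KDM1A fell by 1.19. Architecture and remodelling genes fell in 26 of 40 cases and rose in 6 (median -0.91). HMGB2, a DNA-bending protein of proliferating cells, had 40377 and 32344 at E8 and 1604 and 1535 at E18, and HMGN2 had 60045 and 50438 at E8 and 5033 and 5348 at E18. HDAC11, a histone deacetylase found in brain, had 330.4 and 403 at E8 and 1477 and 1406 at E18, the largest rise of the list. The DNA methylation list is small, with 3 of 7 lower and 2 higher (median -0.33). In it DNMT3B went from 3043 and 2812 at E8 to 65.2 and 64.4 at E18, while DNMT3A, the other de novo methyltransferase, went from 3092 and 2792 at E8 to 5414 and 5809 at E18. TET2, which oxidizes methylcytosine, rose by 0.62. TET2 (adjusted p 0.0558 to 0.122) lost the limma call without E18 replicate 1 or E8 replicate 1 or 2.

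Genes for making proteins fell. Of 60 cytosolic ribosomal protein genes 58 fell and none rose, with a median of -1.09 and a range of -1.50 to -0.14. RPS3A had 56198 and 67263 normalized counts at E8 and 33437 and 35959 at E18. RPL14, at the low end, had 17238 and 19952 at E8 and 6249.6 and 6897 at E18. The list took 50738 and 55535 RPM at E8 and 25444 and 28284 RPM at E18. Reads shared by near-identical rows could be split between them, and how such reads were counted is not given in the sources used here. Ribosome biogenesis genes fell in 29 of 36 cases with none higher (median -0.95), among them the nucleolar proteins NCL, with 32449 and 27810.4 at E8 and 11476 and 11608 at E18, and NPM3, with a fall of 2.29. The spliceosome core fell in 32 of 36 genes (median -1.05), where HNRNPM fell by 1.99 and HNRNPA3 fell by 1.35. The lone rise was that of SRSF4, a splicing regulator, with 831 and 1151 at E8 and 2552 and 2640.2 at E18. Chaperones were mixed, with 11 of 29 higher (37.9%, against 35.5% of all genes) and 12 lower (41.4%, against 30.5%), and a median of 0.10. HSP90AB1 fell by 1.35, as did subunits of the chaperonin that folds actin and tubulin, such as CCT7 (-1.18). HSPA8, which also strips clathrin from synaptic vesicles, rose from 31713 and 38683 at E8 to 76946 and 73542 at E18, and the small heat shock gene HSPB2 rose by 4.58. RPS3A (adjusted p 0.0551 to 0.13) lost the limma call whichever of the 4 libraries was left out.

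RNA-binding proteins of neurons went both ways, in shares not far from those of all genes. Of 34 genes 15 rose (44.1%, against 35.5% of all genes) and 12 fell (35.3%, against 30.5%), with a median of 0.34. The list's summed level differed little, at 3905 and 4083 RPM at E8 and 3908 and 3904 RPM at E18. RBFOX1, a splicing factor of mature neurons, had 686 and 780.1 normalized counts at E8 and 6793 and 6805 at E18. IGF2BP1, which binds mRNAs in embryonic cells, had 4053 and 3299 at E8 and 177 and 158 at E18. PTBP1, a splicing repressor of non-neural cells, fell by 1.90. Its relative in the pairs described below fell as well, by 1.07. PCBP3 rose by 1.23.

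Transcription factors of the precursor state fell unevenly. Of 26 eye field and progenitor factors 20 were lower and 2 higher (median -1.62). FOXN4, which gives precursors competence for amacrine and horizontal fates, had 2829 and 2445 normalized counts at E8 and 16.3 and 8.33 at E18. SOX2, a factor of neural stem cells that Müller glia also keep, had 2071 and 2043 at E8 and 888 and 1017 at E18, and SIX6, given above, fell by 1.25. MEIS2 (1.14) and IKZF1 (2.42) rose. Among 17 proneural and early neuronal factors 5 rose (29.4%, against 35.5% of all genes) and 5 fell (29.4%, against 30.5%), with a median of -0.04. ATOH7, needed for ganglion cells to form, had 10559.8 and 2483 at E8 and 75.2 and 109.8 at E18, where the E8 replicates differed by several fold but neither approached E18. NEUROD1, a factor of photoreceptors and amacrine cells, fell by 1.29. MYT1L, a repressor of non-neuronal genes, rose by 1.81 and PRDM8 by 2.58. OTX2, a factor of photoreceptors and bipolar cells, had 13608 and 21678 at E8 and 10912 and 12388 at E18 (limma adjusted p 0.468), and was called lower with the 6 retina libraries fitted alone and by limma-voom (adjusted p 0.0334 and 0.044). The proneural list had 3 rises without either E18 library or without E8 replicate 1, and 3 falls without E18 replicate 1, but 8 falls with the 6 retina libraries fitted alone and with limma-voom. SOX2 (adjusted p 0.0768 to 0.126) lost the limma call whichever of the 4 libraries was left out, MEIS2 (adjusted p 0.0846 to 0.137) without E18 replicate 1 or 2 or E8 replicate 1, NEUROD1 (adjusted p 0.0612 to 0.0781) without E18 replicate 1 or E8 replicate 2, and other settings gave no call for MEIS2 (adjusted p 0.0501, the 4 libraries fitted alone).

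Notch signalling keeps neighbours of a differentiating cell in the precursor state, and most of its parts fell. Of 33 members 18 fell and 8 rose (median -0.72). The receptor NOTCH1 had 23583 and 28132 normalized counts at E8 and 975 and 829 at E18, a fold change of -4.84 (standard error 0.14). The ligand DLL1 had 5984 and 5519 at E8 and 208 and 257 at E18 and the target HES5, a repressor of proneural genes, 11434 and 6877 at E8 and 398 and 569 at E18. LFNG, a glycosyltransferase that tunes ligand choice, fell by 3.98, and HES6 fell by 7.15. NOTCH2 had a fold change of 0.02 and was not called. The members that rose include the atypical ligands DLK1 (3.99) and DNER (2.01), the ligand JAG1 (1.30) and the ubiquitin ligase DTX1 (3.02).

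Growth factor pathways were mixed. The Hedgehog and Wnt list had 26 of 49 members lower and 12 higher (median -0.43, and -0.85 to -0.80 with a filter at 5 RPM or with the 4 or the 6 retina libraries fitted alone). RSPO1, an enhancer of Wnt signals, fell from 236 and 223 normalized counts at E8 to 3.76 and 4.54 at E18, and the frizzled receptor FZD3 fell by 1.83. The rises include WIF1 at 189.8 and 489 at E8 and 6640.5 and 7884 at E18, SFRP1 at 9803 and 9621 at E8 and 24979 and 26769 at E18 and DKK3 at 4180.4 and 3570.3 at E8 and 12355 and 14228 at E18. All encode secreted proteins, and those of WIF1 and SFRP1 can block Wnt signals. SMO, the signal transducer of Hedgehog, fell by 1.08. CTNNB1, the Wnt effector and adhesion protein, fell by 0.43. In the FGF, BMP and TGF-beta list 21 of 46 fell and 13 rose (median -0.35). FGF8 fell from 256 and 175 at E8 to 10 and 11.4 at E18 and ETV4, a transcriptional target of FGF signals, fell by 3.92. INHBA, a subunit of activin, had 2 and 0 reads at E8 and 216 and 195 at E18, and the BMP antagonist NOG rose by 4.49. SMAD5 fell by 1.43. CTNNB1 (adjusted p 0.0578 to 0.0705) lost the limma call without E18 replicate 1 or 2 or E8 replicate 1.

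Genes of the growing axon cytoskeleton were called in shares near those of all genes. Of 32, 13 rose (40.6%, against 35.5% of all genes) and 8 fell (25%, against 30.5%), with a median of 0.18. The list took 15717 and 16673 RPM at E8 and somewhat less, 13919 and 13872 RPM, at E18. GAP43, a growth cone protein, had 5540.3 and 6521 normalized counts at E8 and 1747 and 2075 at E18. TUBB3, the neuron-specific tubulin, had 30425 and 33167 at E8 and 9258 and 11596 at E18. The neurofilament genes NEFM and NEFH, which fill mature axons, had 5256 and 4331 at E8 and 23769 and 20319.6 at E18 for NEFM. For NEFH the values were 18.7 and 22.5 at E8 and 1024 and 888 at E18. The stages did not overlap in any of these 4 genes, as in 83.6% of all genes tested. TMSB10 fell by 3.17, and MAP2, a dendritic protein, had a fold change of -0.05 and was not called. The falls in the cytoskeleton list numbered 5 without E18 replicate 1 or without E8 replicate 2. GAP43 (adjusted p 0.109 to 0.176) lost the limma call whichever of the 4 libraries was left out, and other settings gave no call for GAP43 (adjusted p 0.0505 to 0.0653, pseudocount 0.5, DESeq2 and reads thinned to equal depth).

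Guidance genes rose in 27 and fell in 16 of 54 cases (median 0.96). Of the ephrin system, which maps retinal axons onto the tectum, EPHB3 fell by 3.38 and EFNB2 fell by 2.06, while EPHA5 rose by 2.94 and EPHA8 by 4.90. NTN4, a netrin also found in basement membranes, rose from 119.5 and 109.8 normalized counts at E8 to 4679.7 and 5283 at E18. Adhesion molecules and synapse organisers rose in 48 of 63 cases and fell in 10 (median 1.86). N-cadherin, CDH2, which joins precursor cells, had 21642 and 25016 at E8 and 5099 and 4575 at E18, and CDH20 fell by 2.99. CDH13, a cadherin without a transmembrane part, had 7.62 and 20.6 at E8 and 2718 and 2334 at E18, and CDH10 rose by 5.12 and CDH8 by 4.60. ELFN1, which recruits metabotropic glutamate receptors to photoreceptor synapses in mouse, had 28.1 and 30.4 at E8 and 2287 and 2175 at E18. CBLN4 had 0 and 2 reads at E8 and 357 and 388 normalized counts at E18. NCAM1, the neural cell adhesion molecule, fell from 54820.1 and 56528 at E8 to 31252 and 26754 at E18. Without E18 replicate 2 the adhesion list had 5 falls.

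Phototransduction was the list with the largest median change. All 23 of its genes tested rose, against 35.5% of all genes, with a median of 6.66, and the list went from 1639 and 1664 RPM at E8 to 10508 and 10717 RPM at E18. GNAT1, the rod transducin, had 1 read in each E8 library and 1887 and 1889 normalized counts at E18. The cone genes PDE6H and PDE6C, an inhibitory and a catalytic subunit of the phosphodiesterase, had 172 and 23.5 at E8 and 61767 and 60568 at E18 for PDE6H. For PDE6C the values were 49.2 and 28.4 at E8 and 13713 and 13291 at E18, a fold change of 8.46 (standard error 0.34) and a limma adjusted p of 1.95e-07. GNGT2 had 577 and 635 at E8 and 51792 and 56723 at E18. The cyclic nucleotide channel subunit CNGB3 of cones had 31.1 and 30.4 at E8 and 5088 and 4935 at E18. SAG, the rod arrestin, had 40.4 and 39.2 at E8 and 5804 and 5405 at E18. GRK7, the cone opsin kinase, had 130.1 and 146 at E8 and 1846 and 1738 at E18. In all of these both E18 libraries lay above both E8 libraries by more than the spread of either stage. The stages did not overlap, in 1 direction or the other, in 83.6% of all genes tested. The smallest rise was that of GNB1, a G protein subunit found in many cells, at 0.37. GNAT2, the cone transducin, lies in the stretch of rows at 0 and was not measured. GNB1 (adjusted p 0.115 to 0.163) lost the limma call whichever of the 4 libraries was left out, and other settings gave no call for GNB1 (adjusted p 0.0508 to 0.0577, TMM factors, edgeR and replicate block).

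Genes of the outer segment and its matrix mostly rose, and few members of the list fell. The list rose in 33 of 50 genes (66%, against 35.5% of all genes) and fell in 5 (10%, against 30.5%), with a median of 0.93. CDHR1, a cadherin at the base of the discs, had 21.7 and 66.6 normalized counts at E8 and 7951 and 7463 at E18. IMPG1, a proteoglycan of the matrix between photoreceptors, had 330.4 and 443 at E8 and 29509 and 28642 at E18. PROM1 rose by 1.84, and IMPG2 by 3.67. RBP3, which carries retinoids between photoreceptors and pigment epithelium, was already at 2423 and 3592 at E8 and at 21331 and 19387 at E18. All 5 members that fell, IFT57 (-0.84), IFT27 (-0.81), IFT20 (-0.61), BBS7 (-0.58) and IFT52 (-0.53), belong to transport complexes that every cilium uses. The falls numbered 3 without E18 replicate 1 or without E8 replicate 1. IFT20 (adjusted p 0.0643 to 0.0729) lost the limma call without E18 replicate 1 or E8 replicate 1, and IFT52 (adjusted p 0.0623 to 0.0826) without E18 replicate 1 or 2 or E8 replicate 1.

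Photoreceptor transcription factors rose in 10 of 16 cases, and NEUROD1 fell (median 0.81). MAFA, a MAF family factor, had 4.69 and 5.88 normalized counts at E8 and 517 and 551 at E18, and SALL3 rose by 4.38 and ESRRB by 3.61. RXRG, a nuclear receptor of cone precursors, had 8687 and 6361 at E8 and 6727 and 7751 at E18. NR2E3, a rod factor in mouse, had 734 and 785 at E8 and 712 and 932 at E18, and neither was called. Retinoid genes rose in 10 (47.6%, against 35.5% of all genes) and fell in 6 (28.6%, against 30.5%) of 21 cases (median 0.96). RLBP1, a retinal carrier of Müller glia and pigment epithelium, had 418 and 472 at E8 and 12294 and 13250.1 at E18. CRABP2, a carrier of retinoic acid, had 156 and 95.1 at E8 and 2.51 and 6.06 at E18. CYP26A1, which degrades retinoic acid, had 1065 and 996 at E8 and 67.7 and 84 at E18. RGR, an opsin of pigment epithelium and Müller glia, had 0 and 3 reads at E8 and 194 and 167 at E18.

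The clock and melatonin list rose in 15 and fell in 2 of 23 cases (median 1.32). The median was 1.91 to 2.89 with a pseudocount of 0.5, the 5 RPM filter, the 4 libraries fitted alone, thinned reads, edgeR, DESeq2 or limma-voom. The rises include enzymes of the route from tryptophan to melatonin. TPH1, which hydroxylates tryptophan, had 13.5 and 12.7 normalized counts at E8 and 1141 and 1102 at E18. DDC, the decarboxylase, had 4.1 and 19.6 at E8 and 1099 and 1098 at E18. AANAT, the rate-limiting acetyltransferase, had 4.1 and 5.88 at E8 and 594 and 840.4 at E18. ASMT, the final methyltransferase, had 5.27 and 3.92 at E8 and 1620.0 and 1629 at E18. DRD4, a dopamine receptor of photoreceptors, had 2.93 and 3.92 at E8 and 3066 and 3203 at E18. OPN4-1, a melanopsin, had 42.8 and 48 at E8 and 3355 and 2935 at E18. NPAS2, a partner of the core clock, rose by 6.73, whereas the core genes ARNTL (-0.16) and PER2 (0.18) were not called. CSNK1E, a kinase that marks PER proteins for breakdown, fell by 0.88. The time of day at which the tissues were taken is not stated in the sources used here.

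Bipolar cell genes rose in 13 and fell in 3 of 19 cases (median 2.11). LRIT3 and NYX, which place the cation channel at the dendrite tips of ON bipolar cells, had 5.27 and 3.92 normalized counts at E8 and 3068 and 3073 at E18 for LRIT3. For NYX the values were 4.69 and 12.7 at E8 and 710.4 and 748 at E18. GRIK1, a kainate receptor subunit of OFF bipolar cells, had 2135 and 2331 at E8 and 17392 and 17787 at E18. The channel itself, TRPM1, was already at 2117 and 1792 at E8 and at 3934 and 3534 at E18. The homeobox factor VSX1 fell by 0.54 and IRX6 fell by 0.59, and SCGN, a calcium-binding protein, fell from 43.4 and 57.8 at E8 to 20 and 9.84 at E18. The count of falls was 1 without either E18 library or without E8 replicate 1, 0 without E8 replicate 2, and 5 with the 6 retina libraries fitted alone and with limma-voom. VSX1 (adjusted p 0.0574 to 0.179) lost the limma call whichever of the 4 libraries was left out, IRX6 (adjusted p 0.157 to 0.228) without E18 replicate 1 or E8 replicate 2, SCGN (adjusted p 0.0619 to 0.161) without E18 replicate 2 or E8 replicate 1 or 2, and other settings gave no call for IRX6 (adjusted p 0.0505, library totals).

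Amacrine and horizontal cell genes rose in 28 of 40 cases and fell in 5 (median 2.20, or 1.97 with zeros set to the limit). The falls are early specification factors such as PTF1A, FOXN4 and DLX1, which had 86.1 and 83.3 normalized counts at E8 and no read at E18 (at least 22.5-fold lower), with DLX6 and the peptide gene PNOC. The rises include genes of transmitter use. SLC32A1, which loads GABA and glycine into vesicles, had 836 and 891 at E8 and 7485 and 7800.1 at E18. GAD2, which makes GABA, had 729 and 822 at E8 and 4712 and 4107 at E18. For acetylcholine, SLC5A7, the choline transporter of starburst amacrine cells, had 3.52 and 3.92 at E8 and 1862 and 1501 at E18. TH, of dopamine cells, had no read at E8 and 17.5 and 11.4 at E18. CALB1 and CALB2, calcium-binding proteins of several inner retinal cells, had 28.1 and 85.3 at E8 and 7662 and 7352 at E18 for CALB1. For CALB2 the values were 619 and 765 at E8 and 14483 and 15965 at E18. Among neuropeptide genes PNOC fell, and NTS (neurotensin) was at 42.8 and 40.2 at E8 and 5821 and 5791 at E18 and GCG (proglucagon) at 3 and 1 reads at E8 and 921 and 821 at E18. Both rose, as did PENK by 2.84, VIP by 3.48 and CCK by 3.42. The count of falls was 3 without E18 replicate 1. DLX6 (adjusted p 0.0906 to 0.16) lost the limma call without E18 replicate 1 or 2 or E8 replicate 1, PNOC (adjusted p 0.0581) without E18 replicate 1, and other settings gave no call for DLX6 (adjusted p 0.0571 to 0.185, pseudocount 5, edgeR and DESeq2).

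Ganglion cell genes rose in 13 and fell in 5 of 23 cases (median 1.40), and the falls were GAP43, TUBB3, SOX11 (-4.46), DLX1 and KLF7 (-0.79), genes of young neurons. SNCB, a synuclein, had 605 and 720.3 normalized counts at E8 and 14048 and 18765 at E18. SLC17A6, the vesicular glutamate transporter of ganglion cells, had 819.7 and 479 at E8 and 8881 and 8048 at E18. RBPMS, an RNA-binding marker of these cells, had 2857 and 3017 at E8 and 7575 and 7888 at E18. SLC17A8 had 2 and 1 reads at E8 and 306 and 243 at E18. ELAVL4 (-0.30) and EBF3 (-0.04) were not called. The count of falls was 3 without either E18 library or without E8 replicate 1. KLF7 (adjusted p 0.0509 to 0.107) lost the limma call without E18 replicate 1 or 2 or E8 replicate 1, and other settings gave no call for KLF7 (adjusted p 0.0971, reads thinned to equal depth).

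Synaptic release genes rose as a group. Of 62 vesicle and active zone genes 50 rose and 5 fell, with a median of 2.16 and a summed level of 3496 and 3892 RPM at E8 and 14479.6 and 13815 RPM at E18. SNAP25, a SNARE of vesicle fusion, had 3306 and 5709.7 normalized counts at E8 and 50793 and 52370.4 at E18. SYT1, the calcium sensor of fusion, had 1569 and 2074 at E8 and 24609 and 22585 at E18. PCLO, a scaffold of the active zone, had 748 and 1024 at E8 and 9262 and 5498 at E18. The rises include CPLX3, a complexin of retinal ribbon synapses, at 221 and 394 at E8 and 8210.4 and 8897 at E18 and STX3, the syntaxin of ribbon terminals, at 167 and 330.3 at E8 and 6351 and 7074 at E18. SYT13 rose most, from 18.2 and 32.3 at E8 to 1874 and 1709 at E18. The genes that fell, RAB3GAP1 (-0.62), CTBP1 (-0.57), PPFIA1 (-0.56), VAMP3 (-0.55) and CADPS2 (-0.34), changed by less than 2-fold, and the first 4 of them act in many cell types. Without E18 replicate 2 the count of falls was 3. VAMP3 (adjusted p 0.0566) lost the limma call without E18 replicate 2, CADPS2 (adjusted p 0.0543 to 0.159) whichever of the 4 libraries was left out, and other settings gave no call for CADPS2 (adjusted p 0.0594 to 0.091, library totals, the 4 libraries fitted alone, DESeq2, replicate block and reads thinned to equal depth).

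Most transmitter receptor genes rose. Ionotropic receptor genes were higher in 41 of 51 cases and lower in 2, CHRNA10 and CHRND, both with few reads (median 2.85). The list took 536 and 608 RPM at E8 and 5289.5 and 5064 RPM at E18. GABRA6, a GABA-A receptor subunit known from cerebellar granule cells, had 11.7 and 73.5 normalized counts at E8 and 12142 and 12056 at E18, with the E8 replicates several fold apart. GABRR1 and GABRR3, of the rho class that forms the slow GABA receptors of bipolar terminals, had 1.76 and 16.7 at E8 and 589 and 619 at E18 for GABRR1. For GABRR3 the values were 8.2 and 6.86 at E8 and 959.7 and 1006 at E18. The glycine receptor subunits GLRA2 and GLRA3 had 11.1 and 24.5 at E8 and 3149.8 and 3040.0 at E18 for GLRA2. For GLRA3 the values were 68 and 100 at E8 and 9472 and 8937 at E18. GRIN1, the obligatory NMDA receptor subunit, had 237 and 365 at E8 and 14006 and 13423 at E18, whereas GRIA2, an AMPA receptor subunit, was already at 1880.2 and 2572 at E8 and rose by 1.56. Of the nicotinic acetylcholine receptor, the subunit genes CHRNB4 (3.36) and CHRNA7 (3.24) rose. CHRND (adjusted p 0.0929 to 0.229) lost the limma call without E18 replicate 1 or E8 replicate 1 or 2, and other settings gave no call for CHRND (adjusted p 0.0637 to 0.191, pseudocount 5, edgeR, DESeq2 and reads thinned to equal depth).

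Metabotropic receptors rose in 39 of 50 cases and fell in 3 (median 2.78). GRM8, a presynaptic glutamate receptor, had 26.4 and 17.6 normalized counts at E8 and 3551 and 3366 at E18. DRD5, a dopamine receptor, had 2.93 and 7.84 at E8 and 1046 and 1102 at E18. ADORA2B, an adenosine receptor, had 8.2 and 5.88 at E8 and 1788 and 1799 at E18. CNR1, the cannabinoid receptor, fell from 1792 and 1421 at E8 to 535 and 516 at E18, and HRH3 (-2.38) and NPY5R (-0.80) also fell. Chloride transporters are few, with 3 of 7 higher and 2 lower (median 0.71). SLC12A5 (KCC2), which lowers chloride inside mature neurons, had 75.6 and 50 at E8 and 3890.3 and 3493 at E18, and SLC12A9 fell by 1.93. NPY5R (adjusted p 0.112 to 0.14) lost the limma call without E18 replicate 1 or 2 or E8 replicate 2, and other settings gave no call for NPY5R (adjusted p 0.0537 to 0.0657, library totals and DESeq2).

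Most channel and pump genes rose. Potassium channel genes rose in 52 of 62 cases (median 2.07), and KCNT2 (-2.87) and KCNK5 (-1.04) fell. KCNMA1, the large-conductance calcium-activated channel, had 781 and 739.9 normalized counts at E8 and 3976 and 3308 at E18, KCNH2 had 788 and 887 at E8 and 3037 and 3858 at E18, and KCNJ12, an inward rectifier, had 2 and 1 reads at E8 and 185 and 189 at E18. Sodium, calcium and other cation or chloride channel genes rose in 40 and fell in 4 of 53 cases (median 2.22). ANO2, a calcium-activated chloride channel of photoreceptor terminals, had 3.52 and 0.98 at E8 and 2074 and 1878 at E18. CACNA2D4, the calcium channel subunit of photoreceptor synapses, had 15.2 and 68.6 at E8 and 9025 and 9013 at E18. SCN2A, a sodium channel of axons, had 377 and 428 at E8 and 9203 and 7619.9 at E18. ANO1 (-3.85), CLCN1 (-1.36), TRPC1 (-0.93) and CACNA1S (-0.89) fell. Ion pumps and exchangers rose in 15 of 18 cases and none fell (median 1.31). ATP2B2, a calcium pump of the plasma membrane, had 138 and 158 at E8 and 3359 and 2502 at E18. ATP2A2, of the endoplasmic reticulum, had 5116 and 4244 at E8 and 26073 and 21357 at E18. ATP1B1, a sodium pump subunit, had 648 and 545 at E8 and 3215 and 3066 at E18. Without E18 replicate 2 the cation and chloride channel list had 2 falls. CLCN1 (adjusted p 0.0842) lost the limma call without E18 replicate 2, CACNA1S (adjusted p 0.0635 to 0.137) whichever of the 4 libraries was left out, and other settings gave no call for CLCN1 (adjusted p 0.0562, DESeq2) and CACNA1S (adjusted p 0.0537 to 0.11, library totals, no filter, the 4 libraries fitted alone, the 6 retina libraries fitted alone, DESeq2, limma-voom and replicate block).

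**Figure D3:**
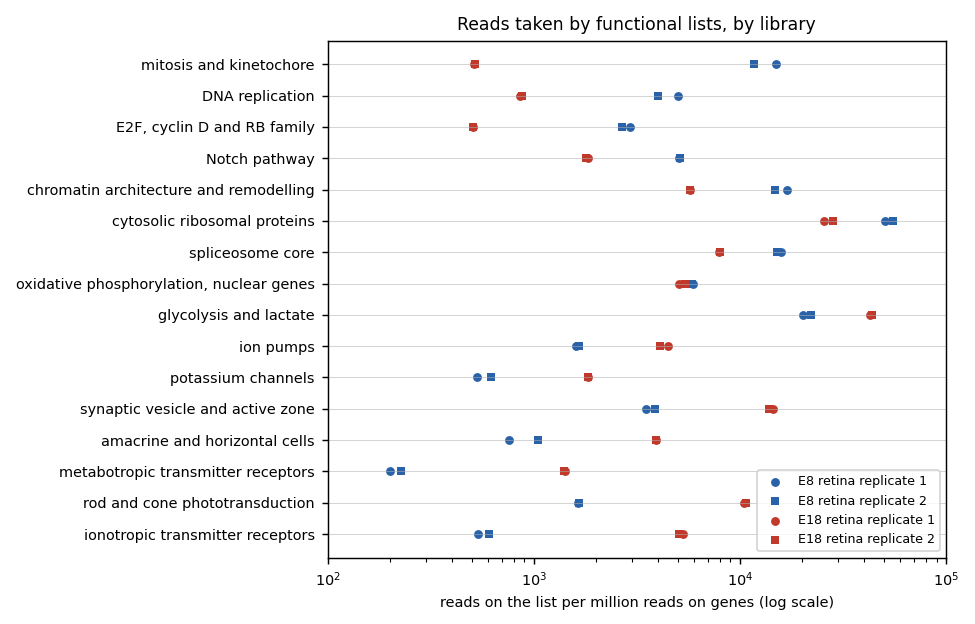
Summed RPM of 16 functional lists, on a log axis, in the E8 (blue) and E18 (red) retina libraries, with a circle for replicate 1 and a square for replicate 2. The mitosis list goes from 14901 and 11703 to 515 and 518 RPM and the phototransduction list from 1639 and 1664 to 10509 and 10717, while the oxidative phosphorylation list changes little.

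Glycolysis genes rose, while most genes of oxidative phosphorylation were not called. Of 24 glycolysis and lactate genes 19 rose and 3 fell (median 1.02), and the list took 20122 and 22119.6 RPM at E8 and 42821 and 43558 RPM at E18. ENO2, the enolase of neurons, had 958 and 1007 normalized counts at E8 and 61716 and 56289 at E18, a fold change of 5.91 (standard error 0.11) and a limma adjusted p of 1.39e-08. The other enolase, ENO1, had 116007 and 124001 at E8 and 187988 and 190719 at E18. GAPDH had 159641 and 188559 at E8 and 273354 and 288253 at E18. ALDOC, the brain aldolase, had 9660.4 and 8558 at E8 and 46278 and 55488 at E18. PFKP, a phosphofructokinase, had 6663 and 5197 at E8 and 28060.4 and 27261 at E18. SLC16A1, which carries lactate, rose by 1.26. PFKFB4, which sets the activator of phosphofructokinase, fell from 3295 and 3435 at E8 to 705 and 692 at E18, and HKDC1 (-1.18) and the glucose transporter SLC2A1 (-0.32) fell less. The citric acid cycle list had 8 of 25 genes higher (32%, against 35.5% of all genes) and 7 lower (28%, against 30.5%), with a median of 0.10. ME3, a mitochondrial malic enzyme, rose by 2.55, PDK4, which shuts pyruvate entry, by 1.23, and IDH2 fell by 0.91. Nuclear genes of oxidative phosphorylation were mostly not called. Of 46, 2 were higher (4.35%, against 35.5% of all genes), NDUFA4 (0.31) and NDUFS6 (0.38). A further 13 were lower (28.3%, against 30.5%), with a list median of -0.18. COX4I1, of the terminal oxidase, had 10099 and 9555 at E8 and 9025 and 9227 at E18. Rows of the mitochondrial genome took 1.22% and 1.32% of reads at E8 and 0.874% and 0.947% at E18. Without E18 replicate 1 or 2, 1 and 2 genes of the citric acid cycle list were called lower, and 4 without E8 replicate 1. For oxidative phosphorylation 6 to 8 were called lower whichever library was left out, and none was called higher without E18 replicate 2 or E8 replicate 1 or by edgeR, but 6 with library totals and 5 with the 6 retina libraries fitted alone. Library totals gave 4 falls in the citric acid cycle list. SLC2A1 (adjusted p 0.0752 to 0.138) and NDUFA4 (adjusted p 0.0935 to 0.141) lost the limma call without E18 replicate 1 or 2 or E8 replicate 1, NDUFS6 (adjusted p 0.0546 to 0.327) without E18 replicate 2 or E8 replicate 1 or 2, and other settings gave no call for SLC2A1 (adjusted p 0.0843, library totals), NDUFA4 (adjusted p 0.0681, edgeR) and NDUFS6 (adjusted p 0.0509 to 0.0826, TMM factors, no filter, the 4 libraries fitted alone and edgeR).

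Lipid and redox genes were mixed. Cholesterol synthesis fell in 12 of 18 cases and rose in 4 (median -0.60). SQLE, squalene epoxidase, had 5957 and 5009.9 normalized counts at E8 and 1742 and 1837 at E18, and ACAT2 fell by 2.21. The rises include SC5D (0.44), INSIG2 (0.96) and EBP, which had 1 and 2 reads at E8. Fatty acid genes fell in 11 and rose in 7 of 22 cases (median -0.18). Beside the fall of FABP7, the desaturase SCD fell by 2.20. ELOVL4, which makes the very long chain fatty acids of photoreceptors, had 1819 and 1501 at E8 and 4903 and 4697 at E18, and FADS6 had 3 reads in each E8 library and 252 and 346 at E18. Antioxidant genes rose in 11 (37.9%, against 35.5% of all genes) and fell in 12 (41.4%, against 30.5%) of 29 cases (median 0.04). They ranged from NQO1, a quinone reductase, at 11.7 and 4.9 at E8 and 144 and 191 at E18, to GCLM, of glutathione synthesis, which fell by 2.18. PRDX1, a peroxidase, fell by 0.91. Creatine and ATP buffering genes rose in 6 (42.9%, against 35.5% of all genes) and fell in 4 (28.6%, against 30.5%) of 14 cases (median 0.15). CKB had 119523 and 118049.9 at E8 and 51181 and 47454 at E18, and the adenylate kinase AK5 82 and 111 at E8 and 4185 and 3864 at E18. NME1 rose from 219 and 234 at E8 to 9964 and 9607 at E18 and NME2 fell from 13880.1 and 14109.5 at E8 to 3724 and 4329 at E18. These nucleoside diphosphate kinases are close copies, so reads could have been split between their rows. Without E18 replicate 1, 4 fatty acid genes were called higher. SC5D (adjusted p 0.0564 to 0.115) lost the limma call without E18 replicate 1 or 2 or E8 replicate 2.

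Müller glia genes separated into precursor genes that fell and glial functions that rose. Of 30 genes 20 rose and 7 fell (median 1.56). GLUL, glutamine synthetase, had 948 and 1151 normalized counts at E8 and 37222 and 36451 at E18, a fold change of 5.14 (standard error 0.24). SPARCL1, a secreted matrix protein, had 762 and 597 at E8 and 73628 and 75972 at E18. The water channel AQP4 had 2.93 and 2.94 at E8 and 1868 and 1597 at E18. MLC1, a membrane protein of astrocytes and Müller cells, had 35.7 and 32.3 at E8 and 3139 and 3017 at E18. CA2, carbonic anhydrase, had 38049 and 37676 at E8 and 92251 and 100367 at E18. The falls were FABP7, NOTCH1, HES5, CYP26A1, SOX9 (-2.14), SOX2 and RDH10 (-0.71), most of which precursor cells also express. GFAP, an intermediate filament of reactive glia, was low at both stages, with 4.1 and 2.94 at E8 and 56.4 and 40.9 at E18.

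Markers of other cells that whole retina can hold also changed. Oligodendrocyte genes rose in 11 and fell in 2 of 18 cases (median 1.86), and chicken retina, unlike that of mouse, contains myelinated axons. MBP, a main myelin protein, had 219 and 218 normalized counts at E8 and 10847 and 9602 at E18. SOX10, the lineage factor, had 4.1 and 3.92 at E8 and 608 and 555 at E18. TF (-1.47) and MAL (-1.58) fell. Microglia and leukocyte genes rose in 20 and fell in 3 of 28 cases (median 2.14). With a filter at 5 RPM 3 were called higher (median 0.98), with the 4 libraries fitted alone 13 (median 2.69), and the median was 1.23 with a pseudocount of 5. CSF1R, the receptor on which microglia depend, had 36.3 and 36.3 at E8 and 461 and 409.6 at E18 and P2RY12, a marker of resting microglia, had 0 and 3 reads at E8 and 37.6 and 23.5 at E18. The summed level of that list fell, from 224 and 219 RPM to 140.3 and 139.9 RPM, while CXCR4, a chemokine receptor that neural precursors also express, fell (4892 and 4786 at E8 and 1685 and 1666 at E18), and MPEG1 and PTPRC fell too. Complement and interferon genes rose in 9 (34.6%, against 35.5% of all genes) and fell in 3 (11.5%, against 30.5%) of 26 cases (median 0.36). Among the rises were B2M, of antigen presentation, at 166 and 80.4 at E8 and 329.5 and 441 at E18, and NLRC5, its regulator (4.40). TAP2 (-2.82), C5 (-2.45) and IRF10 fell, the last from 18.7 and 28.4 to 0 and 2 reads. Neither oligodendrocyte gene was called lower without E8 replicate 1 (0 of 18). TF (adjusted p 0.169 to 0.184) lost the limma call without E18 replicate 2 or E8 replicate 1, MAL (adjusted p 0.0807 to 0.176) without E18 replicate 1 or E8 replicate 1 or 2, PTPRC (adjusted p 0.0939 to 0.243) without E18 replicate 1 or 2 or E8 replicate 1, and other settings gave no call for MAL (adjusted p 0.0529 to 0.2, edgeR, DESeq2 and reads thinned to equal depth) and PTPRC (adjusted p 0.0511 to 0.0739, library totals, no filter, the 4 libraries fitted alone and replicate block).

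Lists of markers of other tissues were measured too. Pigment epithelium and melanin genes rose in 10 of 18 cases with none lower, or 2 with the 6 retina libraries fitted alone (median 1.17, or 1.07 with zeros set to the limit). The list took 651 and 975 RPM at E8 and 757 and 795 RPM at E18. TYR, which makes melanin, was at 15.8 and 22.5 normalized counts at E8 and 15 and 3.03 at E18 and RPE65, the isomerase of pigment epithelium, at 20.5 and 23.5 at E8 and 86.5 and 108 at E18. Part of the list, such as OTX2 and TRPM1, is also expressed in retinal neurons. The cornea and skin list rose in 8 (32%, against 35.5% of all genes) and fell in 4 (16%, against 30.5%) of 25 cases (median 0.28). Its epithelial keratins stayed near 0, with KRT12 at 8.79 and 16.7 at E8 and 3.76 and 2.27 at E18. KERA, the keratocan of corneal stroma, had 7.62 and 10.8 at E8 and 604 and 631 at E18, compared with 89802 and 89359 in the E18 cornea libraries, while LUM, another stromal proteoglycan, had 5.27 and 9.8 at E8 and 10 and 5.3 at E18, compared with 147625 and 189813 in cornea. The part of tissue carried over from the cornea in the KERA values was not tested. Lens genes rose in 7 and fell in 3 of 13 (median 1.11), and crystallins rose in 7 and fell in 2 of 13 (median 1.16). CRYBB2, a beta crystallin, had 10.5 and 11.8 at E8 and 1296 and 1680.1 at E18. CRYAB, a small heat shock protein, had 107 and 97 at E8 and 822 and 926 at E18. CRYAA, an abundant crystallin of lens, had 1.17 and 0.98 at E8 and 5.01 and 4.54 at E18. Embryonic red cell genes were low, with HBG1 at 11.7 and 19.6 at E8 and no read at E18, and that list rose in 2 (CA2 and SPTB, both also of neural tissue) and fell in 4 of 9 cases (median -1.16). Endothelial genes rose in 6 (35.3%, against 35.5% of all genes) and fell in 4 (23.5%, against 30.5%) of 17. Their median was -0.12, and its sign turned with the 4 libraries fitted alone (1.00), the 6 retina libraries (0.97) and the 5 RPM filter (2.12). The largest change of that list was a rise (7.21). Its summed level, KDR included, was 129 and 106 RPM at E8 and 361 and 327 RPM at E18. The endothelial receptor TIE1 and the sialomucin EMCN fell, from 80.3 and 49 at E8 to 5.01 and 3.79 at E18 for TIE1. For EMCN the values were 359 and 334 at E8 and 33.8 and 25.7 at E18, while KDR, a VEGF receptor that retinal neurons also express, had 2712 and 2047 at E8 and 7396 and 6614 at E18. Muscle genes rose in 13 and fell in 2 of 29 (median 0.82), where ACTN2, an actinin found at synapses as well, had 39.8 and 41.2 at E8 and 2849 and 2399 at E18, PAX3 fell from 83.2 and 50 to 2 and 1 reads and MYH1B, a myosin heavy chain, had no read at E8 and 77.7 and 50 at E18. The 5 RPM filter, which tests fewer genes, left 4 rises in the cornea list, 3 each in the lens, endothelial and muscle lists and 4 among crystallins. RPE65 (adjusted p 0.0503 to 0.055) lost the limma call without E18 replicate 2 or E8 replicate 1, CRYAA (adjusted p 0.0599 to 0.0782) without E18 replicate 1 or 2 or E8 replicate 2, and other settings gave no call for CRYAA (adjusted p 0.0751 to 0.122, pseudocount 5, edgeR, DESeq2 and limma-voom).

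Hormone and matrix genes close the description by function. The thyroid hormone, glucocorticoid and other nuclear signalling list rose in 18 and fell in 4 of 31 cases (median 1.06). DIO2, which activates thyroid hormone, had 38.1 and 58.8 normalized counts at E8 and 807 and 744 at E18, and the receptors THRA and THRB rose by 1.12 and 0.85. IGF1 had no read at E8 and 92.7 and 95.4 at E18, at least 32-fold higher, while its receptor IGF1R fell by 1.37. Collagens, laminins and other matrix genes were called in shares near those of all genes. Of 70, 26 rose (37.1%, against 35.5% of all genes) and 21 fell (30%, against 30.5%), with a median of 0.17. The falls include 4 genes of basement membrane proteins, with COL4A1 at 908 and 644 at E8 and 112 and 22.7 at E18, COL4A6 at 3832 and 3882 at E8 and 259 and 187 at E18, NID1 at 3312 and 2587 at E8 and 383 and 349.8 at E18 and AGRN at 9783 and 10761 at E8 and 3573 and 3023 at E18. The rises include TNR at 746 and 1476 at E8 and 10312 and 8188 at E18, BCAN at 101 and 109.8 at E8 and 846 and 984 at E18, of the matrix around neurons, and RELN, the signalling glycoprotein reelin, at 2964 and 8485 at E8 and 24398 and 15969 at E18. The E8 and E18 libraries did not overlap in any of these matrix genes, as in 83.6% of all genes tested. THRB (adjusted p 0.117 to 0.295) lost the limma call without E18 replicate 1 or 2 or E8 replicate 2, and other settings gave no call for THRB (adjusted p 0.0503 to 0.0735, pseudocount 0.5, the 4 libraries fitted alone, replicate block and reads thinned to equal depth).

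Related genes with overlapping functions often took different courses. Of 40 pairs listed, 25 had both members tested, and in 8 the first fell and the other rose. Beside EZH2 and EZH1 and DNMT3B and DNMT3A these were SMARCA5 (-3.04) and SMARCA1 (1.03) of the ISWI remodellers, HDAC2 (-1.85) and HDAC11, the stathmins STMN1 (-1.19) and STMN4 (1.28), SNAP23 (-0.58) and SNAP25, SLC2A1 and SLC2A3 (2.07), and SLC12A2 (-0.57), which lies on the Z rows, and SLC12A5. The SLC12A2 change lies near the median of the Z rows (-0.47), and stage and embryo sex cannot be told apart for it. Both members rose in 7 pairs and both fell in 4. In the remaining 6 at least 1 member was not called. The difference between the members of a pair was not tested as such. These pairs were picked with earlier results of these data known, so their counts say nothing about related genes in general. STMN4 (adjusted p 0.0675 to 0.135) lost the limma call whichever of the 4 libraries was left out, SNAP23 (adjusted p 0.0918 to 0.191) without E18 replicate 1 or 2 or E8 replicate 1, and SLC12A2 (adjusted p 0.0699) without E18 replicate 2.

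**Figure D4:**
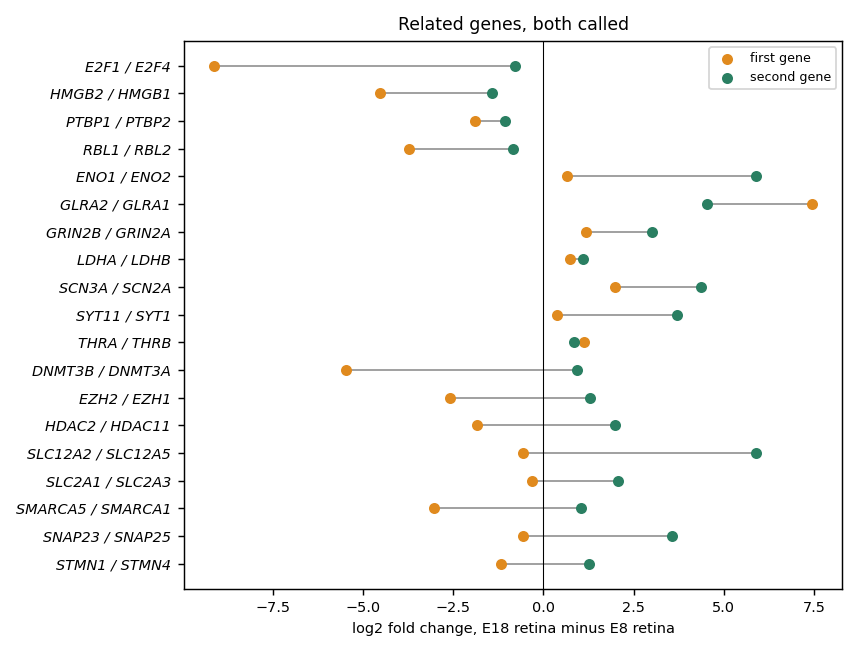
Log2 fold change, E18 minus E8 retina, of the first (orange) and second (green) member of each pair of related genes in which both were called, joined by a grey line. In 8 pairs, at the bottom, the first member lies below 0 and the second above it. Among them is SLC12A2 with SLC12A5, where SLC12A2 lies on the Z rows.

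The E16 libraries place part of the change in time. The values are given as description, since the tests above compare E8 and E18. TOP2A was at 331 and 288 normalized counts at E16, PLK1 at 54.7 and 58.8 and NOTCH1 at 1079.5 and 1141, all much closer to E18 than to E8. GUCA1A was at 1835 and 3035 and PRPH2 at 3001 and 2258 at E16, between the other stages. GAPDH was at 526159 and 578466 at E16, above both E18 libraries. MBP was at 1619 and 2641 and NTS at 2451 and 2893.

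The rows of the sex chromosomes were described apart. Of the Z rows 724 had reads, and 600 of the 602 matched by symbol to the GRCg7b annotation lie on chromosome Z there. Of 644 tested, 316 were lower at E18 (49.1%) and 165 higher (25.6%), against 30.5% and 35.5% of the other rows. Their median was -0.47, which is -0.53 relative to the median of the other rows, and over the 4 pairings of an E18 with an E8 library this shift ran from -0.57 to -0.47. Z rows together took 48641 and 47949 RPM at E8 and 36784 and 36452 RPM at E18. Of the 16 W rows 13 had reads and 7 were tested, all higher at E18. The reads on them came to 23 and 17 in the E8 libraries, which are the deepest and the next to shallowest of the 4, and to 7160 and 11552 in the E18 libraries, or 0.504 and 0.627 RPM against 353 and 345. In the E16 retina libraries the level was 304 and 303 RPM. Female chickens carry a Z and a W chromosome and males a pair of Z chromosomes. The labels give no sex, and stage and embryo sex cannot be told apart for these rows. Any difference in sex between the E8 and E18 embryos would bear on the rows outside as well. Those include 5 rows that GRCg7b places on chromosome Z and 6 on chromosome W.

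**Figure D5:**
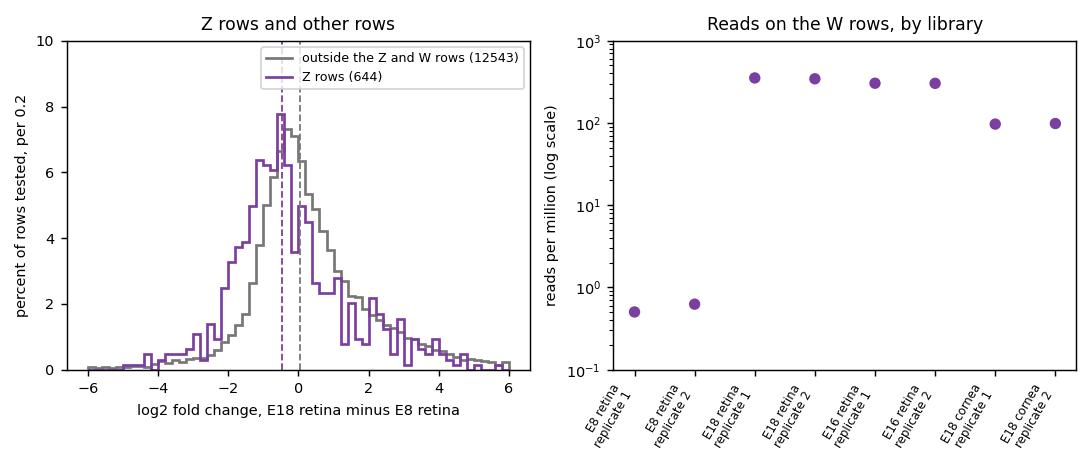
Left, percent of rows tested in each bin of 0.2 of the log2 fold change, E18 minus E8 retina, for the Z rows (purple) and the rows outside Z and W (grey), with dashed lines at the medians and values beyond ±6 not drawn. Right, summed RPM of the W rows, on a log axis, in all 8 libraries, which are under 1 in both E8 libraries and 96.9 or more in the other 6.

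Several Z genes changed far more than that shift. SMC2, a condensin subunit, had 27791 and 21311 normalized counts at E8 and 32.6 and 22 at E18 and MELK, a mitotic kinase, had 1982 and 1392 at E8 and 2 and 3 reads at E18, and DEPDC1B, another gene of mitosis, fell by 8.64. CPLX4, a complexin of ribbon synapses, had 1 read in each E8 library and 1643 and 1636 at E18. SKOR2, a transcriptional corepressor, rose by 7.60 and SLC27A6, a fatty acid transporter, by 6.77. SLC1A3, the glutamate transporter of Müller glia, had 6389 and 5409 at E8 and 64488 and 65053 at E18, and RORB, a nuclear receptor of photoreceptor and inner retinal development, fell from 11085 and 8793 at E8 to 1509 and 1323 at E18. Of the 85 tested members of the functional lists on the Z rows, 38 fell and 29 rose, with a median of -0.19.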

How the data were processed

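RNA-seq of 8 libraries was analysed, 2 each of E8, E16 and E18 retina and E18 cornea. The authors aligned reads to galGal4 with STAR, counted reads on genes with featureCounts (strand setting and treatment of overlapping or multiply mapped reads are not given in the sources used here, so near-identical and overlapping genes are uncertain) and divided the counts by DESeq2 size factors. The deposited values are thus a normalized signal. Whole reads were recovered for 100% of values within 0.001.

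Rows were filtered with filterByExpr (edgeR 4.0.16, minimum count 10) on those reads, and log2(value + 1) was fitted with limma 3.58.1 (R 4.3.3, trended prior) with 1 term per group and Benjamini-Hochberg adjustment over all rows tested. Counting intervals (95%) and limits of 3 reads cover counting error only, and p-values measure only the spread between these libraries. Members, lists, pairs and tests were chosen with earlier results of these data known. A rule took 231 genes (largest changes, largest gains and losses of reads, extremes, most abundant and minority members of each list, pairs, and extremes on Z). Of 362 genes named, 168 lie outside it and were chosen after their values were seen. Gene names are those of the file, and RefSeq GRCg7b served only to check which rows lie on Z and W. It places 5 rows outside the Z and W stretches on chromosome Z and 6 on chromosome W. These were left among the rows outside. In 21 rows the name had become a calendar date, and these carry no symbol here. Alternatives changed scaling (TMM, library totals), filter, pseudocount (0.5, 5), libraries, tool (edgeR, DESeq2 1.42.0, limma-voom), replicate block, depth and threshold, and each library was left out in turn. The models were tested on simulated data. Some genes are not reported here. Promoter and protein sequences were not analysed here.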

Additional observations from a re-analysis of the deposited data

How the results depend on the processing

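Outside the Z and W rows, the number of genes called between E18 and E8 retina was 8275, and it lay between 6705 and 8512 under every alternative on those rows other than a required fold change, and was 8763 with the Z and W rows counted in. Asking for at least a 2-fold difference left 5262 genes, of which 1929 were lower at E18. Leaving out 1 library gave 6842 to 7916 called genes, 3806 to 4270 higher and 3036 to 3646 lower, with fewest without E18 replicate 1, where the lone library is assumed to vary like the other groups. The edgeR quasi-likelihood test called 8380 and DESeq2 8119. Scaling by library totals gave 4655 higher and 3501 lower. The filter at 5 RPM gave 3438 higher and 3480 lower, without the excess of rises. Replicate differences at E8 and E18 correlated at 0.003 across genes, and a fit with the replicate block called 8211. Whether replicates of the same number shared a processing batch is not stated in the sources used here. The Z median relative to the other rows was -0.53 (-0.53 with the replicate block), -0.47 with no centring and -0.57 to -0.45 without 1 library, with -0.45 without E18 replicate 2.

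Of 1026 medians of the 57 lists under alternatives, 971 moved by less than the spread, 54 moved further and 1 turned from a value clear of 0. Of 2052 counts of list members called, 61 moved by over 1.5 times. At least 5 RPM as the filter turned the median of the red blood cell list from -1.16 to 1.35, since it leaves fewer of its genes. From values near 0 the endothelial and antioxidant medians also changed sign under that filter (2.12 and -0.36), the citric acid cycle median without E8 replicate 2 (-0.02), the proneural one with library totals (0.03) or without E8 replicate 2 (0.12), and the endothelial one without E18 replicate 2 (0.27) or E8 replicate 1 (0.12). Medians that moved without a library include those of chloride transporters between 0.32 (without E8 replicate 2) and 1.10 (without E8 replicate 1), of retinoid genes between 0.48 (without E8 replicate 1) and 1.43 (without E8 replicate 2), of pigment epithelium to 1.81 without E8 replicate 2, of the E2F list to -1.91 without E8 replicate 2, of mitosis to -5.61 and of photoreceptor factors to 1.13 without E8 replicate 1, and of creatine and ATP buffering to 0.38 and DNA methylation to -0.10 without E18 replicate 2. Of 6767 values of the named genes under alternatives, 220 lost the call, 3 gained it and 0 reversed. Those that ended a call are given beside the gene, except at the stricter adjusted p of 0.01. With 2 libraries a stage, differences near the threshold rest on the shared estimate of the spread. Genes with few reads, such as those with at most 3 reads at a stage, bound a fold change only on counting error. Embryo sex is not stated in the sources used here.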

Other observations

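Gene families that stand in none of the functional lists as a whole, named by their symbols, also leaned one way or were divided. They and the genes named in them were chosen after their values were seen, and the backgrounds are again 35.5% of genes called higher and 30.5% called lower at E18 by limma. The V-type proton pump, which acidifies synaptic vesicles, endosomes and lysosomes, rose in 12 of 14 subunit genes with none lower (median 1.15). Among them ATP6V1A had 2633 and 2536 normalized counts at E8 and 9292 and 8693 at E18. ATP6V0D2 had 103 and 784 at E8, with the replicates several fold apart, and 3954 and 4376 at E18. Its fold change was 3.86 (standard error 0.76). Regulators of G protein signalling rose in 14 of 19 cases and fell in 2. RGS9, which ends the light response in photoreceptors, had 138 and 216 at E8 and 3407 and 3464 at E18. RGS8, a regulator found in brain, rose by 6.41, and RGS12 (-1.84) and RGS3 (-1.02) fell. Adenylyl and guanylyl cyclases rose in 8 of 12 cases, led by the photoreceptor cyclase GUCY2F at 2.93 and 5.88 at E8 and 411 and 346 at E18, and ADCY5 fell by 1.19. Connexins, the subunits of gap junctions, were divided, with 6 of 13 higher and 4 lower. GJA1, the connexin of precursor cells and glia, had 4149 and 2789 at E8 and 45.1 and 33.3 at E18. GJA10 had 1 read in each E8 library and 126 and 228 reads at E18, GJD2, the connexin of neurons, rose by 3.20, and GJD4 (-1.58) and GJC1 (-0.57) were among those that fell. Annexins rose in 6 of 7 cases with none lower, and claudins, of tight junctions, in 5 of 11 with none lower. The claudins that rose were CLDN11, CLDN19, CLDN4, CLDN10 (2.81) and CLDN15 (1.45). CLDN11, a protein of myelin sheaths, had 2 and 0 reads at E8 and 92.7 and 100.7 normalized counts at E18. CLDN19 had 3 and 2 reads at E8 and 56.4 and 68.1 normalized counts at E18. CLDN4 had no read at E8 and 11.3 and 22 normalized counts at E18. GJD4 (adjusted p 0.0546 to 0.226) lost the limma call without E18 replicate 1 or E8 replicate 1 or 2, GJC1 (adjusted p 0.0797 to 0.112) without E18 replicate 1 or 2 or E8 replicate 2, and other settings gave no call for GJD4 (adjusted p 0.0799 to 0.195, pseudocount 5, edgeR and DESeq2).

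Families of protein turnover and RNA handling leaned downward. Proteasome genes fell in 28 of 35 cases (median -0.68) and 1 rose, PSMG2 (0.44), an assembly chaperone. Nucleoporins, the building blocks of the nuclear pore, fell in 14 of 17 cases with none higher (median -1.23). NUP205, of the inner ring of the pore, had 6978 and 7762 normalized counts at E8 and 2392 and 2037 at E18. Mitochondrial ribosomal protein genes fell in 34 of 53 cases with none higher (median -0.59). Translation initiation factors fell in 30 of 43 cases (median -0.64), and the 4 that rose were EIF4E1B (1 read in each E8 library, 8 and 29 reads at E18), EIF4E3 (0.99), EIF4A2 (0.79) and EIF2AK3 (0.41), of which the last is the stress kinase PERK. DEAD and DEAH box RNA helicases fell in 25 of 35 cases (median -0.62), and DHX30 (0.56) and DDX17 (0.37) rose. Zinc finger genes fell in 51 of 108 cases and rose in 14 (median -0.38). Of 1431 tested rows that carry an Ensembl identifier and no symbol, 551 were higher and 304 lower at E18. PSMG2 (adjusted p 0.0567) lost the limma call without E18 replicate 1, EIF2AK3 (adjusted p 0.0603 to 0.101) without E18 replicate 1 or 2 or E8 replicate 2, DDX17 (adjusted p 0.093 to 0.277) without E18 replicate 1 or 2 or E8 replicate 1, and other settings gave no call for DDX17 (adjusted p 0.0515 to 0.0836, TMM factors, the 4 libraries fitted alone, edgeR, limma-voom and replicate block).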
